A study of Mus musculus with 4 samples.

Results

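Tns3, Dlc1 and Ptk2 encode 3 proteins that meet at focal adhesions, and 15 of the 6891 chromatin regions in the authors' table of peaks that differed between Rnf20 knockout and control retinal endothelium were assigned to them. The members are all rows of that table whose assigned gene name is Tns3 (6 peaks), Dlc1 (6 peaks) or Ptk2 (3 peaks). They were chosen with this contrast known, so levels, folds and counts are given as a description with no test. All 12 peaks of Tns3 and Dlc1 had a knockout mean above the control mean, while Ptk2 had 1 such peak and 2 with the knockout mean below. Of all listed peaks, 62.1% were higher in knockout and 37.9% lower. No member passed a false discovery rate (FDR) of 0.05 in the authors' deposited table, where 3.02% of all listed peaks did.

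Focal adhesions are the sites where integrin receptors, bound to the matrix outside the cell, are coupled to actin filaments inside it. Endothelial cells build and dissolve these sites as sprouts advance over the retinal surface. Tensin-3, the product of Tns3, is an adaptor that binds integrin tails and actin-associated partners, and the RefSeq gene table also lists it under the endothelial name TEM6. DLC1 is a GTPase-activating protein that switches off RhoA and is held at focal adhesions by binding to tensins. Ptk2 encodes focal adhesion kinase, a tyrosine kinase activated downstream of integrins and of VEGF receptors. RNF20 is a ligase that attaches ubiquitin to histone H2B within transcribed genes.

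ATAC-seq, an assay that marks open DNA with a transposase carrying sequencing adapters, was applied to endothelial cells captured with CD31 beads from mouse retinas of postnatal day 7. The labels give all 4 libraries the C57BL/6 background, the transgene Tg(Pdgfb-icre/ERT2) and the allele Rnf20tm1a(EUCOMM)Wtsi, with 75 µg of 4-hydroxytamoxifen on each day from postnatal day 1 to 4. By genotype, knockouts carried the Cre (Pdgf{beta}CreERT2pos Rnf20p/p) and controls lacked it (Pdgf{beta}CreERT2neg Rnf20p/p), although the labels name the transgene for all 4 libraries. The Rnf20p/p alleles and the drug were thus shared by both groups. Title and genotype field name the same group for 1 control and 1 knockout library, and opposite groups for the other 2. The Pdgfb promoter drives this Cre mainly in endothelial cells. The table holds 1 mean per group and peak, on a log2 scale, with no value or error per library, and the labels do not tie libraries to those means. The labelled cell type could not be checked against marker levels, because only differing peaks are listed. For 13 endothelial marker genes the table listed 10 peaks, 7 with positive and 3 with negative folds, and 8 of the genes had none. Markers of Müller glia and progenitors had 4 peaks with positive and 3 with negative folds, those of pericytes and smooth muscle 1 and 1, and those of microglia and macrophages 0 and 1. Their part in the results was not tested.

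In what follows, a fold is the authors' log2 of knockout over control, and "higher" or "lower" gives its sign only. Each listed peak had an unadjusted p of at most 0.0499, and the smallest absolute fold in the table was 0.59, a linear change of 1.5. Peaks at these genes that differed by less are not in the table, so the counts below cover listed peaks and not all open sites of a gene. Positive folds made up 55.5% of listed intron peaks and 75.1% of listed intergenic peaks.

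**Figure D1:**
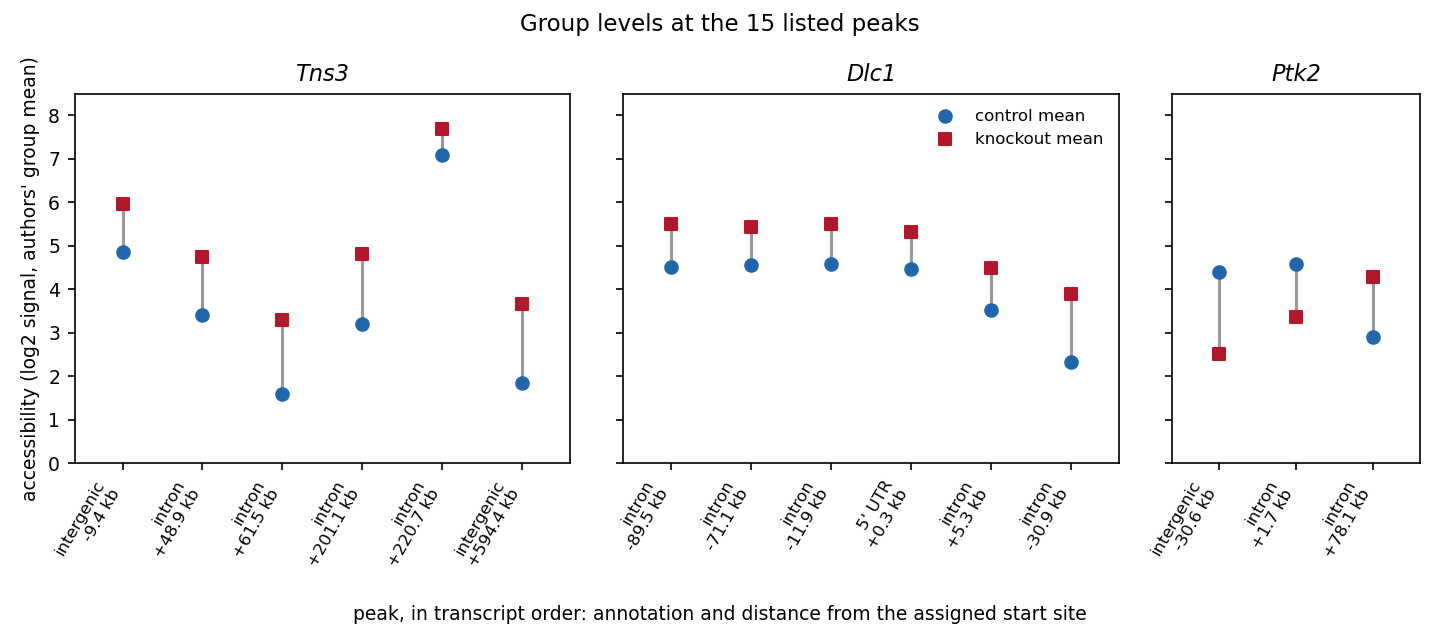
The vertical axis gives the authors' log2 signal in control (circles) and knockout (squares) at each of the 15 listed peaks, with no error bars because the table holds no values per library. The knockout mean lies above the control mean at all 12 peaks of Tns3 and Dlc1, and below it at 2 of the 3 Ptk2 peaks.

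Tns3 lies on chromosome 11 (8431652 to 8664758, GRCm38.p6, the build also called mm10) and is transcribed from the minus strand. Its 6 listed peaks were all higher, with folds from 0.60 to 1.83 and a median of 1.465 in the authors' deposited table. They were spread over 604 kb, 4 inside introns and 2 intergenic, and their FDR ran from 0.149 to 0.389 in the authors' deposited table. No Tns3 peak reached the start site itself.

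The Tns3 peak of smallest FDR lay in intron 20 of 30 (chr11:8463250-8463560), 201130 bases into the gene. The authors' means there were 4.82 in knockout and 3.21 in control, a fold of 1.60 (3.03 times on the linear scale) at p = 0.00175 and FDR 0.149 in the authors' deposited table. Closer to the start, a pair of peaks sat within intron 2. One (chr11:8615535-8615823) had authors' means of 4.75 in knockout and 3.42 in control (fold 1.33, FDR 0.306), and the other (chr11:8602910-8603135) had authors' means of 3.29 and 1.59 (fold 1.70, FDR 0.389). The latter had the lowest mean signal of the members, above that of 12.9% of listed peaks.

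The strongest site of all members was also in Tns3. It lay in intron 27 of 30 (chr11:8443434-8444204), near the 3' end of the gene, spanned 770 bases, and had a mean signal above that of 99.9% of listed peaks. The authors' means were 7.68 in knockout and 7.09 in control, a fold of 0.60 (1.52 times, FDR 0.325) in the authors' deposited table. This fold stands just inside the smallest that the table lists, and 62 of its peaks had an absolute fold of 0.60 or less.

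Outside the gene, an intergenic site 9433 bases upstream of the Tns3 start (chr11:8673757-8674178) was the second strongest of the members. Its authors' means were 5.97 in knockout and 4.85 in control (fold 1.12, FDR 0.291). The remaining site (chr11:8070027-8070181) lay 594431 bases downstream of the start and 361548 bases beyond the 3' bound of the gene. There the authors' means were 3.67 in knockout and 1.84 in control (fold 1.83, FDR 0.268), the largest positive fold among the members. Its link to Tns3 is nearest-start assignment only.

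All 6 Tns3 distances are counted from base 8664535, which is also the start used for this gene in the RefSeq promoter table. The 250 bases before it (GRCm38.p6, minus strand, chr11:8664536-8664785) are shown here because this window held no listed peak, the nearest beginning 8972 bases farther upstream. RefSeq bounds of the gene reach into the window, so other transcript models begin within it. Capitals mark GC boxes, GGGCGG on either strand.
Tns3 upstream: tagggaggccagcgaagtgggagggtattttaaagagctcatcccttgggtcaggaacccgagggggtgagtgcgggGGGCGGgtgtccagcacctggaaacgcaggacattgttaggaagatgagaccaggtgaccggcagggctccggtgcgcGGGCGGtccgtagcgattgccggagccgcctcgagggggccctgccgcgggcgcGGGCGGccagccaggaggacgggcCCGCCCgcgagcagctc
The window held 4 GC boxes, and 32.7% of the 32851 RefSeq promoter windows of this length hold at least 1. Its GC content was 69.6%, against a median of 52.4% over those windows. The letters TATAAA, searched on both strands, were not in this window, and 12.4% of all windows hold them.

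**Figure D2:**
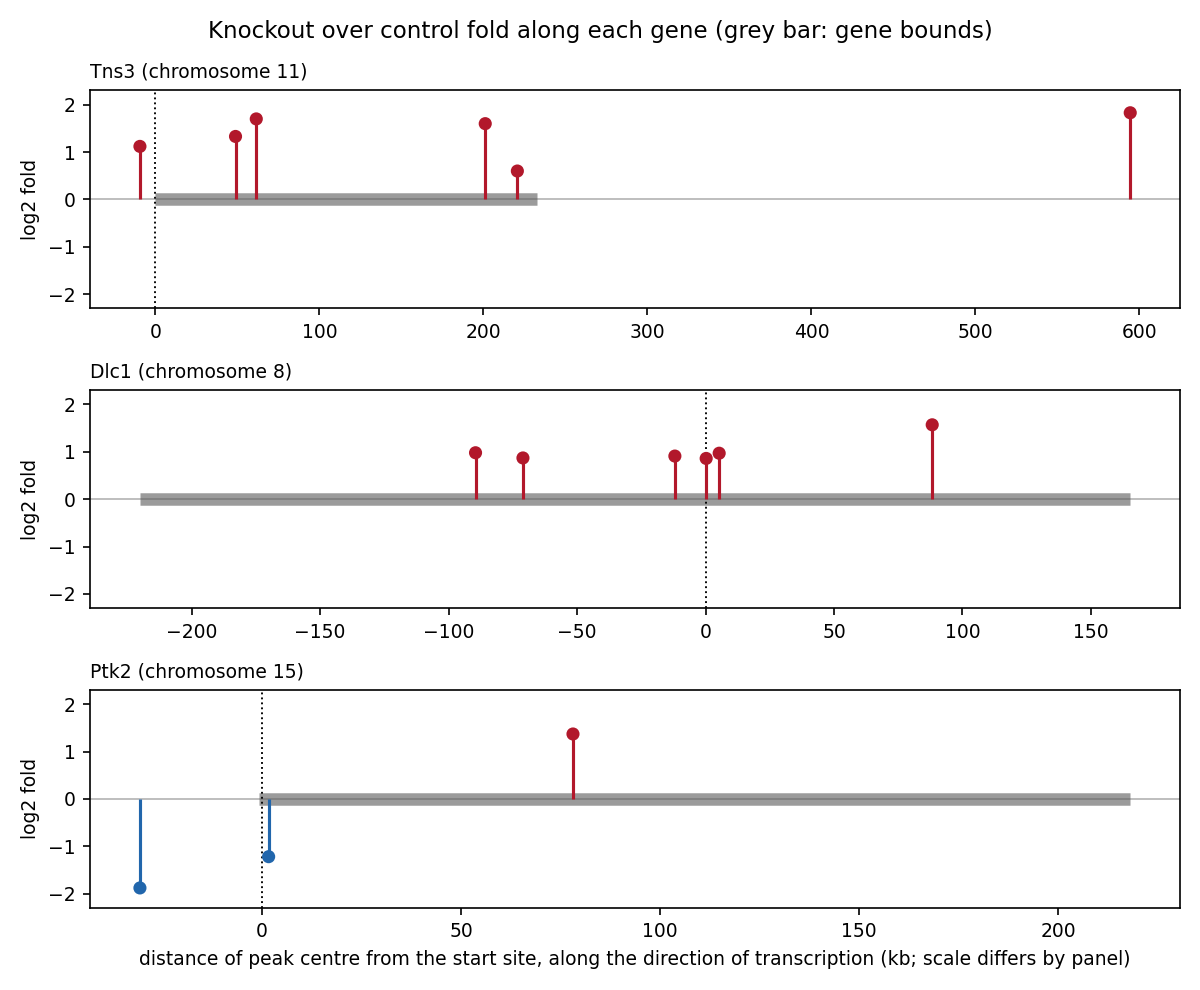
Each stem is a listed peak placed by its distance from the start site in kb along the direction of transcription (horizontal axis, scaled separately per gene), and its height is the authors' log2 fold of knockout over control. Grey bars are the RefSeq gene bounds, and all Dlc1 peaks are placed from the internal start near base 36733053. Dlc1 peaks all fall within the gene, the outermost Tns3 peak lies 594431 bases from the start, and the Ptk2 stems below 0 are the upstream site and the one 1683 bases into the gene.

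Dlc1 lies on chromosome 8 (36567739 to 36953184) and, at 385 kb, is the longest of the genes. All 6 of its listed peaks lay within the gene bounds and all were higher, with folds from 0.86 to 1.57 and a median of 0.94 in the authors' deposited table. Their FDR ran from 0.337 to 0.532 in the authors' deposited table, a range that overlaps that of Tns3. The distances show that the authors placed 5 of them relative to an internal start near base 36733053 and 1 relative to a start near 36613942, both inside the gene bounds.

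One Dlc1 peak lay directly beside such an internal start. It was annotated to the 5' untranslated region of exon 1 of 14 of a shorter transcript (chr8:36732538-36733049), 260 bases from its start. The authors' means were 5.32 in knockout and 4.46 in control (fold 0.86, 1.82 times, FDR 0.391). Of the 56 listed peaks of the same class, 32.1% had positive folds. The neighbouring site 5321 bases downstream of that start (chr8:36727562-36727904), in intron 5 of 17 of the long transcript, had authors' means of 4.50 in knockout and 3.53 in control (fold 0.97, FDR 0.49).

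Upstream of the internal start, 3 intron sites had nearly equal levels. At 11921 bases upstream (chr8:36744743-36745206, intron 5 of 17) the authors' means were 5.50 in knockout and 4.58 in control (fold 0.91, FDR 0.38). At 71053 bases (chr8:36803834-36804380, intron 4 of 17) they were 5.43 and 4.56 (fold 0.87, FDR 0.532), and at 89507 bases (chr8:36822323-36822798, intron 4 of 17) 5.51 and 4.52 (fold 0.98, FDR 0.461). With the 5' untranslated site, these peaks formed a group of 4 whose knockout means lay between 5.32 and 5.51 and whose control means lay between 4.46 and 4.58. Each had a mean signal above that of at least 80.5% of listed peaks.

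The most 3' of the Dlc1 peaks (chr8:36644695-36644932, intron 5 of 17), 30871 bases upstream of the other internal start, was the weakest and had the largest fold of that gene. Its authors' means were 3.90 in knockout and 2.33 in control, a fold of 1.57 (2.97 times) at p = 0.0137 and FDR 0.337 in the authors' deposited table. It was the only Dlc1 peak with an absolute fold of at least 1, a size that 74.6% of all listed peaks reached. Of the Tns3 peaks 5 reached it, and of the Ptk2 peaks all 3 did.

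Ptk2 lies on chromosome 15 (73205102 to 73423820), and its 3 listed peaks went both ways. The site closest to the FDR threshold among all members was intergenic, 30642 bases upstream of the Ptk2 start (chr15:73453627-73454039). The authors' means there were 2.52 in knockout and 4.40 in control, a linear ratio of 0.272 (fold -1.88) at p = 0.000222 and FDR 0.0589 in the authors' deposited table. It was the only member with an FDR under 0.1, which 7.89% of listed peaks had. A second lower site lay 1683 bases into the gene, in intron 1 of 33 (chr15:73421437-73421578), with authors' means of 3.36 in knockout and 4.58 in control (fold -1.22, FDR 0.28).

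The Ptk2 site with a positive fold lay deeper, in intron 2 of 34 of another transcript (chr15:73344885-73345247), 78125 bases from the start. Its authors' means were 4.28 in knockout and 2.91 in control (fold 1.37, FDR 0.464). At the 3 peaks named after Ptk2, control means thus ran from 2.91 to 4.58 and knockout means from 2.52 to 4.28. Among them, the order of the groups was reversed between the sites around the start and the deeper site. Another listed peak lay inside Ptk2 but was named after the microRNA gene Mir151, which sits in a Ptk2 intron. That peak (chr15:73311076-73311223, intron 8 of 33, 56268 bases from Mir151) had authors' means of 2.64 in knockout and 3.62 in control (fold -0.98, FDR 0.519). It lay farther from the Ptk2 start than the site with the positive fold and was lower, so direction did not follow depth in the gene. By position rather than by name, Ptk2 thus held 3 listed peaks, 1 higher and 2 lower, and Tns3 held 4, all higher.

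**Figure D3:**
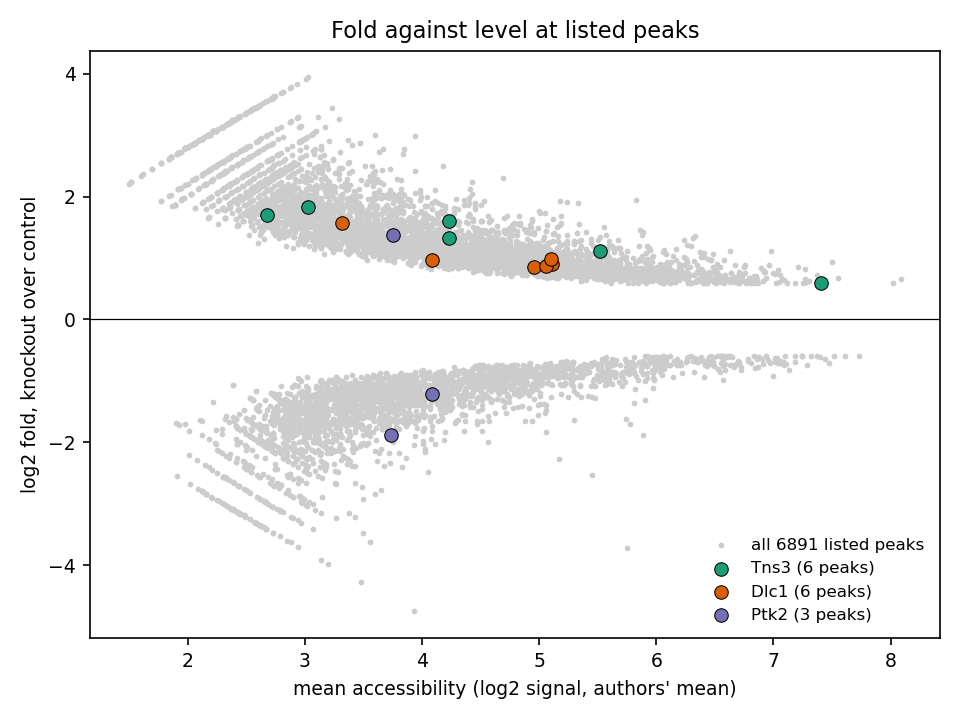
Each point is a listed peak, with the authors' mean log2 signal on the horizontal axis and the log2 fold of knockout over control on the vertical axis; grey points are all 6891 peaks and large points the members. The empty band around 0 is the part of the range that the table does not list, and it widens toward weak peaks. The Tns3 and Dlc1 points follow the upper cloud, down to the Tns3 peak at 7.41 and a fold of 0.60.

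Among Tns3 and Dlc1 peaks, as among all listed higher peaks, weak sites had the larger folds. The band of folds that the table does not list widens toward weak peaks, so this trend cannot be read as a trait of these genes. Spearman's rank correlation between mean signal and fold was -0.74 over these 12 peaks, and -0.86 over all 4276 listed peaks with positive folds, which share the same libraries and the same entry threshold. The 3 members with mean signal from 2 to 4 had a median fold of 1.70, where all listed higher peaks had 1.78. Between 4 and 6, the 8 members had a median of 0.98 and all listed higher peaks 1.00. From 6 to 9, the single member, the Tns3 site of intron 27, had 0.60, below the lower quartile (0.64) and the median (0.72) of listed higher peaks. Below a mean signal of 6, the members' median folds thus lay close to those of listed higher peaks of like signal.

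Genes with this many listed peaks were few. Of 4992 gene names in the table, 16 had 6 or more listed peaks, and in 8 of those every peak was higher, Tns3 and Dlc1 included. No gene of the 16 had lower peaks only. Of 261 genes with exactly 3 listed peaks, as Ptk2 has, 104 had only higher peaks, 23 only lower ones and 40 the Ptk2 split of 1 higher and 2 lower. Long genes offer more room for peaks, and among 638 protein-coding genes of 200 to 400 kb the median was 1 listed peak within the gene bounds. At least 4 peaks, as in Tns3, were held by 19 of these genes, and at least 6, as in Dlc1, by 6, of which 3 had only higher peaks. Per 100 kb of gene, Tns3 held 1.72, Dlc1 1.56 and Ptk2 1.37 listed peaks.

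The genes most like each member were taken as those with the same number of listed peaks and the nearest median fold. Predicted genes (Gm plus digits, or Rik names) were skipped, so they could not be named here. For Tns3 they were Plxna1, a semaphorin co-receptor gene (6 of 6 peaks higher, median fold 1.305), Mir1904 (5 of 6, 1.12) and Marcks, an actin-binding substrate of protein kinase C (6 of 6, 1.06). For Dlc1 they were Rgs3, a regulator of G protein signalling (4 of 6 higher, median 0.93), Fry (3 of 6, 0.905) and Foxl1, a forkhead factor (4 of 6, 0.98), none of which had its peaks all on one side. For Ptk2 they were the integrin gene Itga9 (1 of 3 higher, median -1.21), the proteasome subunit gene Psmc1 (0 of 3, -1.21) and Sertad2 (0 of 3, -1.23). Likeness here rests on 1 mean per group.

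Within the families of these genes the listed peaks were mixed. The tensin gene Tns4 had 2 higher peaks, at folds of 2.39 (intron, FDR 0.225) and 0.82 (intergenic, FDR 0.456) in the authors' deposited table. Its intron peak had a low authors' control mean, 0.67, beside 3.06 in knockout. Tns1, another tensin that crosslinks actin, had 1 lower intron peak (fold -1.38, FDR 0.326 in the authors' deposited table). Tns2 had peaks on both sides, with authors' means of 4.42 in knockout and 5.42 in control (FDR 0.422) at one and of 2.92 and 1.28 (FDR 0.512) at the other, and both lay within Eif4b. Of the other genes of the DLC family, Stard8 had 1 listed peak, with an authors' mean of 2.96 in knockout and a control mean listed at 0 (FDR 0.237), and Stard13 had 0. Ptk2b, the close relative of Ptk2, had 0 listed peaks.

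**Figure D4:**
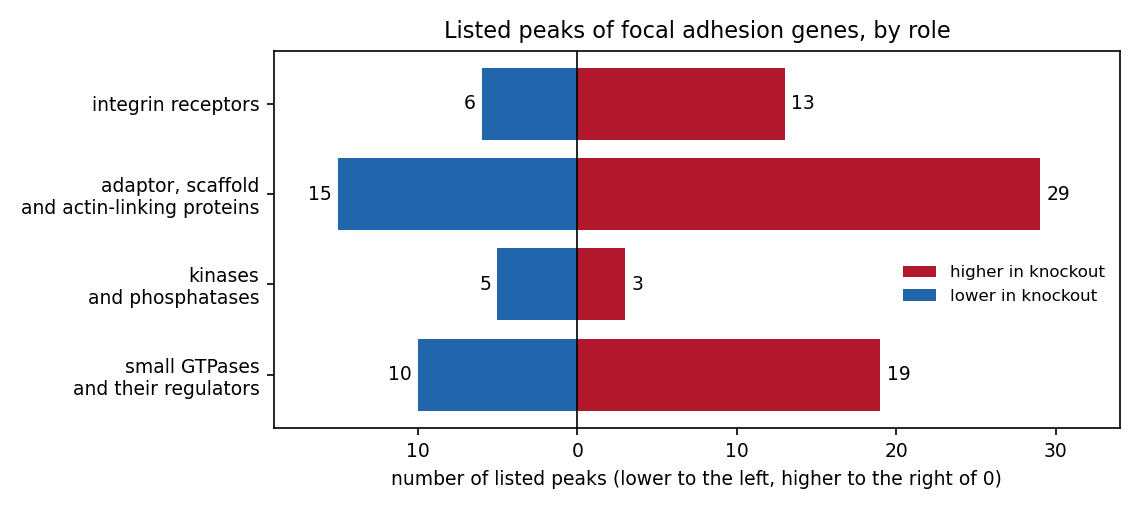
Bars count listed peaks assigned to focal adhesion genes by role, with higher peaks to the right of 0 and lower peaks to the left (horizontal axis, number of peaks). The kinase and phosphatase group is the one with more lower (5) than higher (3) peaks, and the adaptor group is the largest, with 29 higher and 15 lower.

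Across 108 focal adhesion genes grouped by role, 53 had at least 1 listed peak, 100 in all. Of these peaks 64 were higher and 36 lower, or 64% higher beside 62.1% over the whole table, and the median fold was 0.88 beside 0.93. Without Tns3, Dlc1 and Ptk2 the split was 51 higher and 34 lower (60% higher). The focal adhesion genes as a whole therefore had about the same split as the table. By gene, 23 had only higher peaks, 17 only lower and 13 both. Peaks at FDR < 0.05 numbered 2 (1 higher and 1 lower), both in the adaptor list, beside 3.02% of the table.

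Integrin receptor genes had 13 higher and 6 lower listed peaks over 12 of 21 genes, with a median fold of 1.17. The higher peaks of smallest FDR were intergenic, 16500 bases from the Itga3 start (fold 1.17, FDR 0.192) and 1713 from that of Itga2 (1.46, FDR 0.193), which encode laminin- and collagen-binding subunits, and in an intron of Itga11, another collagen receptor gene (2.18, FDR 0.225), as the authors' deposited table gives them. Lower peaks included an intron of Itgb1, the common beta subunit (authors' means 0.89 in knockout and 3.50 in control, FDR 0.0501), an intron of Itga9 (-1.80, FDR 0.19) and an exon of Itga7 (-1.78, FDR 0.239) in the authors' deposited table.

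Adaptor, scaffold and actin-linking genes had 29 higher and 15 lower peaks over 21 of 42 genes, with a median fold of 0.88, and 23 higher and 15 lower without Tns3. The gene at which accessibility fell was Lims1, which encodes the PINCH adaptor of the integrin-linked kinase complex. Its intron peak (chr10:58354520-58355065) had authors' means of 4.97 in knockout and 6.33 in control (fold -1.36, FDR 0.0273). The peak that rose was assigned to Rsu1, whose product binds PINCH, but lay 101072 bases from its start, within Cubn (chr2:13372204-13372769). Its authors' means were 5.33 in knockout and 3.66 in control (fold 1.68, FDR 0.039). Rsu1 had 2 listed peaks, 1 higher and 1 lower, so the gene name went both ways. Parva, which encodes the third partner of that complex, had 1 peak that was not called, in an intron, with authors' means of 0.82 in knockout and 3.48 in control (FDR 0.0963). Nedd9, which encodes a docking protein phosphorylated by focal adhesion kinase, had 3 higher peaks (smallest FDR 0.222, fold 1.98) in the authors' deposited table.

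Kinase and phosphatase genes had 3 higher and 5 lower peaks over 5 of 17 genes, with a median fold of -1.23, and 2 higher and 3 lower without Ptk2. Besides Ptk2, the lower peaks of smallest FDR were at Pak1, a kinase activated by RAC1 and CDC42 (fold -2.25, FDR 0.174), and at the 5' untranslated region of Tesk1, a cofilin kinase gene (-1.25, FDR 0.263), in the authors' deposited table. The Pak1 peak had a low authors' knockout mean, 1.29, beside 3.54 in control. Positive folds were found in an intron of Ptpn11, the SHP2 phosphatase gene (1.54, FDR 0.186), and in intergenic DNA 98552 bases from the start of Ptpn1, another tyrosine phosphatase gene (0.79, FDR 0.477), in the authors' deposited table. Ptpn1 also had 1 lower listed peak.

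Small GTPases and their regulators had 19 higher and 10 lower peaks over 15 of 28 genes, with a median fold of 0.89, and 13 higher and 10 lower without Dlc1. Higher peaks of smallest FDR lay in introns of Asap3, an ARF GTPase-activating protein gene (fold 1.57, FDR 0.0507), and of Elmo1, a partner of the Rac activator DOCK1 (2.74, FDR 0.135), and in intergenic DNA 239080 bases from the Asap1 start (1.62, FDR 0.195), in the authors' deposited table. The Elmo1 peak had a low authors' control mean, 0.67, where the lowest listed control mean was 0. Lower ones lay in introns of Git2, a paxillin-binding scaffold gene (-1.41, FDR 0.112), of the integrin-activating GTPase gene Rap1b (-2.43, FDR 0.143) and of Arhgap22, a Rac GTPase-activating protein gene (-2.25, FDR 0.174), in the authors' deposited table. Git2 and Arhgap22 each had 2 listed peaks, 1 higher and 1 lower. Authors' knockout means were low at the Rap1b (0.82) and Arhgap22 (1.29) peaks, where the lowest listed knockout mean was 0.13.

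Distance from the start site moved with the split. Within 50 kb of the assigned start, focal adhesion genes had 40 higher and 31 lower listed peaks (56.3% higher), where the whole table had 56.2%. Beyond 50 kb they had 24 higher and 5 lower (82.8%), where the table had 75.4%, and without Tns3, Dlc1 and Ptk2 17 higher and 5 lower (77.3%). Of the 15 member peaks, 8 lay within 50 kb, 6 of them higher and both lower Ptk2 sites among them, and all 7 beyond it were higher.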

How the data were processed

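One table was used, the workbook copy of the authors' comparison of Rnf20 knockout with control. The authors deposited for each peak the mean, knockout and control signal and the fold as log2 values, and a p-value with its FDR. The fold equalled knockout minus control within 0.01, and the mean column the log2 of the mean unlogged group level within 0.009. The submitters' processing notes name, without roles, the build mm10, Bowtie2, Trimmomatic 0.36, Picard 1.119, SAMtools, MACS2, deepTools, edgeR, DiffBind and ChIPseeker. The sources used here do not give the peak set, read shifting, scaling or depth per library, so no interval or SD could be computed. FDR times rank over p implied about 76300 peaks tested, of which about 3800 would fall under p 0.05 with no effect.

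Rows were taken by assigned gene name, counted by the sign of the fold and set beside all 6891 listed peaks, with no test. Gene bounds came from the RefSeq table of GRCm38.p6, in which all 108 listed focal adhesion genes matched, and coordinates are as deposited. For each role, up to 3 genes a direction were named by smallest FDR (1 of them is not reported here). Members and lists were chosen with earlier results of these data known. The alternatives were other FDR, fold, signal and distance filters, leaving out means at the lowest value of their column, and assignment by gene bounds. Counting by sign was checked only on the listed peaks with signs set beforehand, which does not check gene assignment or the filters. Python 3.11.15 with pandas 2.3.3 and SciPy 1.17.1 was used.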

Additional observations from a re-analysis of the deposited data

How the results depend on the processing

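Of 42 counts recomputed (the 6 counts above 0 under 7 alternatives), 23 stayed within 1.5 times their value. The counts of lower Tns3 and Dlc1 peaks are 0, which filters that only remove peaks cannot move. At FDR < 0.05 the counts were 0 higher for Tns3, 0 higher for Dlc1, 0 higher and 0 lower for Ptk2, and 1 higher and 1 lower for the focal adhesion genes. At FDR < 0.1 they were 0 for Tns3, 0 for Dlc1, 0 higher and 1 lower for Ptk2, and 2 higher and 5 lower for the focal adhesion genes. With an absolute fold of at least 1, Dlc1 kept 1 higher peak and the focal adhesion genes had 40 higher. With mean signal of 3.74 (the median over listed peaks) or more, the focal adhesion genes had 39 higher and 15 lower. Within 50 kb of the start, Tns3 had 2 higher peaks, Ptk2 0 higher, and the focal adhesion genes 40 higher. Each of these filters leaves fewer peaks by construction. Assignment by gene bounds, which can add peaks, gave 0 lower peaks for Tns3 and for Dlc1. Neither leaving out means at the lowest value of their column nor assignment by gene bounds moved any of the 8 counts by more than 1.5 times. No paired analysis was possible because the table holds group means only, and for the same reason no library could be left out. No depth is given, so weak peaks such as the Tns3 site with a control mean of 1.59 have unknown precision.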

Other observations

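The surroundings of the genes differed in what was listed. Within 250 kb of the bounds of Ptk2 the table held 9 peaks, 2 higher and 7 lower, of which 6 were named after other genes. They included a peak 1010 bases upstream of the Dennd3 start, with authors' means of 3.82 in knockout and 4.81 in control (fold -0.99, FDR 0.47). Both peaks named after Slc45a4 lay in introns of Dennd3, a gene for a Rab exchange factor, where the authors' deposited table gives folds of -1.54 (FDR 0.515) and -0.92 (FDR 0.488). On the other flank, a peak named after Chrac1 lay in an intron of Ago2, the Argonaute gene of microRNA silencing (fold -0.75, FDR 0.536), and an intron peak of Trappc9 had a positive fold (1.57, FDR 0.329), both in the authors' deposited table. None of the 9 passed FDR 0.05. Within the same distance of Tns3 the table held 5 peaks, all named after Tns3 and all higher. Around Dlc1 it held 7, of which the 6 named after Dlc1 were higher and 1 named after a predicted gene on the 5' flank was lower (chr8:37132105-37132303, authors' means 1.29 in knockout and 3.64 in control, FDR 0.129).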
